A study of Homo sapiens with 12 samples.

Results

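The genes described here are 9 epithelial keratins, KRT5, KRT14, KRT15, KRT17, KRT7, KRT8, KRT18, KRT19 and KRT80, and the transcription factor gene TP63, which are 10 of the 20007 protein-coding genes with a window in these data. They were chosen by name. Each was followed over its gene body and 10 kb on either side (GENCODE v44, GRCh38) as chromatin accessibility by ATAC-seq, in which a transposase cuts and tags DNA that is not wrapped in closed chromatin. The cells were DU-145, an established line of castration-resistant prostate cancer (CRPC), and BT-549, an established line of triple-negative breast cancer (TNBC). All of them, controls included, carried tet-MUC1shRNA, a doxycycline-inducible hairpin against MUC1 in a vector that was selected with puromycin. Each line was treated with vehicle (0.1% DMSO, which the labels also call untreated) or with doxycycline (DOX) for 7 days, with 3 biologically independent replicates per condition and 12 libraries in all. No cells with a control hairpin were analysed here, so the loss of MUC1-C and DOX itself cannot be told apart. The assay reads DNA and holds no measure of MUC1 transcript.

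Keratins are the intermediate filament proteins of epithelial cells and work as obligate pairs of a type I and a type II chain. KRT5 and KRT14 pair in the basal cells of stratified and glandular epithelia, where KRT15 and KRT17 can join them, while KRT8 and KRT18 pair in simple and luminal epithelia, together with KRT7 and KRT19. TP63 encodes p63, the transcription factor that maintains basal epithelial cells and drives basal keratin genes, from an upstream promoter (TAp63) and an internal promoter (ΔNp63). KRT80 is a type II keratin that is expressed in many epithelia and lies apart from the basal and luminal pairs.

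The deposited table of each line holds bins of 100 bp in the accessible regions of that line. All values below are normalized coverage, that is, the coverage summed over a window or region, divided by the sum of that library over its whole table and multiplied by 1000000. The library sums ranged from 12370094 to 25232000 for DU-145. In BT-549 they ranged from 9142900 to 13606129 for vehicle but only from 2502510 to 3267024 for DOX, so that the DOX values of BT-549 rest on the fewest fragments. The peak lists were also shorter there, with 30450 to 39837 peaks against 65204 to 93929 for vehicle, and 63271 to 95487 for the DU-145 libraries. The prostate markers KLK2, KLK3, HOXB13 and FOLH1 were among those with no testable window in DU-145, and the luminal breast markers PGR, TFF1 and SPDEF had none in BT-549. In bulk cells, fewer cells with an open site and less opening per cell cannot be told apart.

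The DU-145 table covered all 10 genes, with 624 bins in 34 accessible regions (runs of adjoining bins) of 79177 in the table. The BT-549 table covered KRT7, KRT15, KRT19, KRT80 and TP63, with 239 bins in 25 regions of 46298. It held no bin in the windows of KRT5, KRT14, KRT17, KRT8 or KRT18. The bins of KRT18 are also bins of KRT8, and KRT15 and KRT19 held the same bins, so neither pair gives independent values.

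Per kb of window in vehicle, DU-145 cells were most accessible at KRT7, with 5.55 ± 0.169 per kb (SD, n = 3), followed by KRT19 (3.97 ± 0.158), KRT15 (3.41 ± 0.135), KRT18 (2.74 ± 0.238), KRT8 (2.61 ± 0.164) and KRT80 (2.2 ± 0.214). Of the basal keratins, KRT15, whose bins are those of KRT19, thus stood above KRT8 and KRT18, while KRT17 (0.144 ± 0.0237), KRT14 (0.135 ± 0.0167) and KRT5 (0.0472 ± 0.0263) lay far lower, and the long window of TP63 had 0.108 ± 0.0075. The libraries of KRT18 and KRT8 overlapped in this order, as did those of KRT17 and KRT14, and the other neighbours did not. The order of KRT19 and KRT15 is no measured difference in either line. Their bins are the same, and only the window lengths differ (24.7 and 28.8 kb). In BT-549 vehicle cells the order was KRT80 (3.88 ± 0.218), KRT7 (0.853 ± 0.131), TP63 (0.686 ± 0.0236), KRT19 (0.131 ± 0.0015) and KRT15 (0.113 ± 0.0013), in which KRT7 and TP63 overlapped. A peak summit within 1 kb of the gene start was listed in all 3 libraries for 5 of the 10 genes in DU-145 vehicle, for 6 in DU-145 DOX and for 1, KRT80, in each BT-549 condition. The gene counted in DOX only was KRT18. The start of its reference transcript (MANE Select) had a summit within 1 kb in all 3 libraries of either DU-145 condition, so this is no gained peak. No share over all genes is given for these counts.

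**Figure D1:**
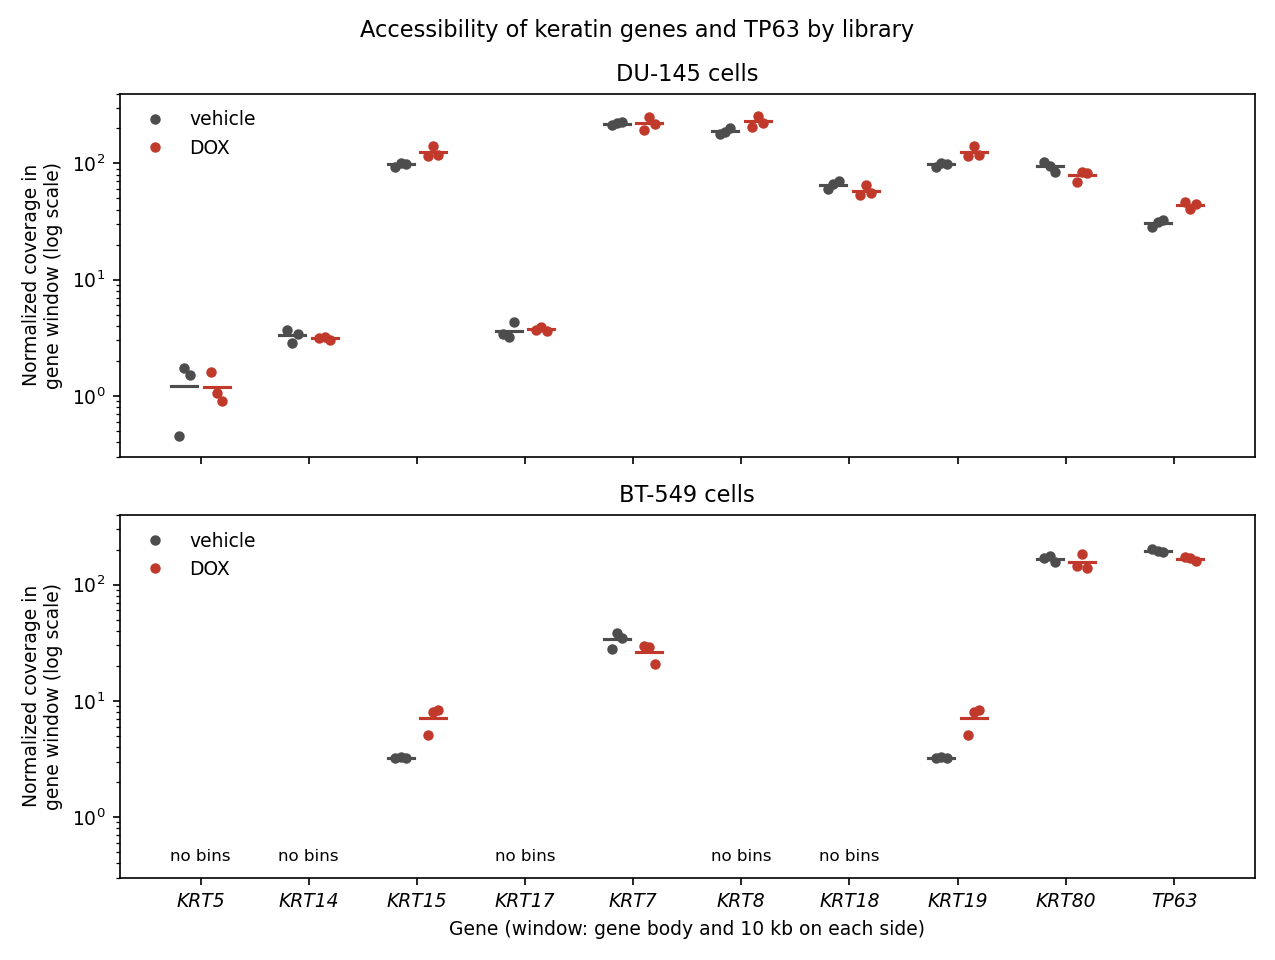
Normalized coverage (log axis) in the window of each gene, with 1 point per library and bars for the means of 3 libraries, in vehicle (grey) and in DOX (red), with DU-145 in the upper panel and BT-549 in the lower. In DU-145 the luminal genes lie between 53.4 and 258 and KRT5, KRT14 and KRT17 under 5, while only KRT7, KRT15, KRT19, KRT80 and TP63 have bins in BT-549.

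To ask whether DOX changed these windows, the quasi-likelihood test of edgeR was applied to all windows of a line, and a change was called at a Benjamini-Hochberg adjusted p under 0.05. In DU-145, 4 of the 10 windows rose (KRT8, TP63 and the shared bins of KRT15 and KRT19), 1 fell (KRT80) and 5 had no call, against 20.0% of all 17651 windows that rose and 31.0% that fell. The median log2 fold change was 0.03 over the 10 genes and -0.06 over all windows. In BT-549, 2 of the 5 windows rose (the shared bins of KRT15 and KRT19), 1 fell (TP63) and 2 had no call, against 18.2% and 13.1% of 16309 windows. The medians were -0.10 and 0.04.

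Single regions moved in both directions within the same gene. In DU-145, 11 of the 34 regions opened, 7 closed and 16 had no call, against 37.1% of all regions in the table that opened and 17.4% that closed, with medians of 0.10 over the 34 regions and 0.24 over all. In BT-549, 3 of the 25 regions opened, 5 closed and 17 had no call, against 12.2% and 18.0%, with medians of -0.12 and -0.10. The scaling weighs on these splits. Of all called DU-145 regions, 68.0% rose with the library sums, 54.1% with TMM factors and 43.9% once each library's trend with GC content was removed, and the median of all regions went from 0.24 to 0.05 and -0.09. Under TMM factors 9 of the 34 regions opened and 10 closed, and with the GC trend removed 8 opened and 8 closed. Of the 18 calls in DU-145, 15 kept their direction and their call under both, and of the 8 calls in BT-549, 6 did. None was called in the opposite direction. In BT-549, 40.4% of all called regions rose with the library sums, 51.7% with TMM factors (4 of the 25 opened and 5 closed) and 54.8% without the GC trend (3 and 4).

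**Figure D2:**
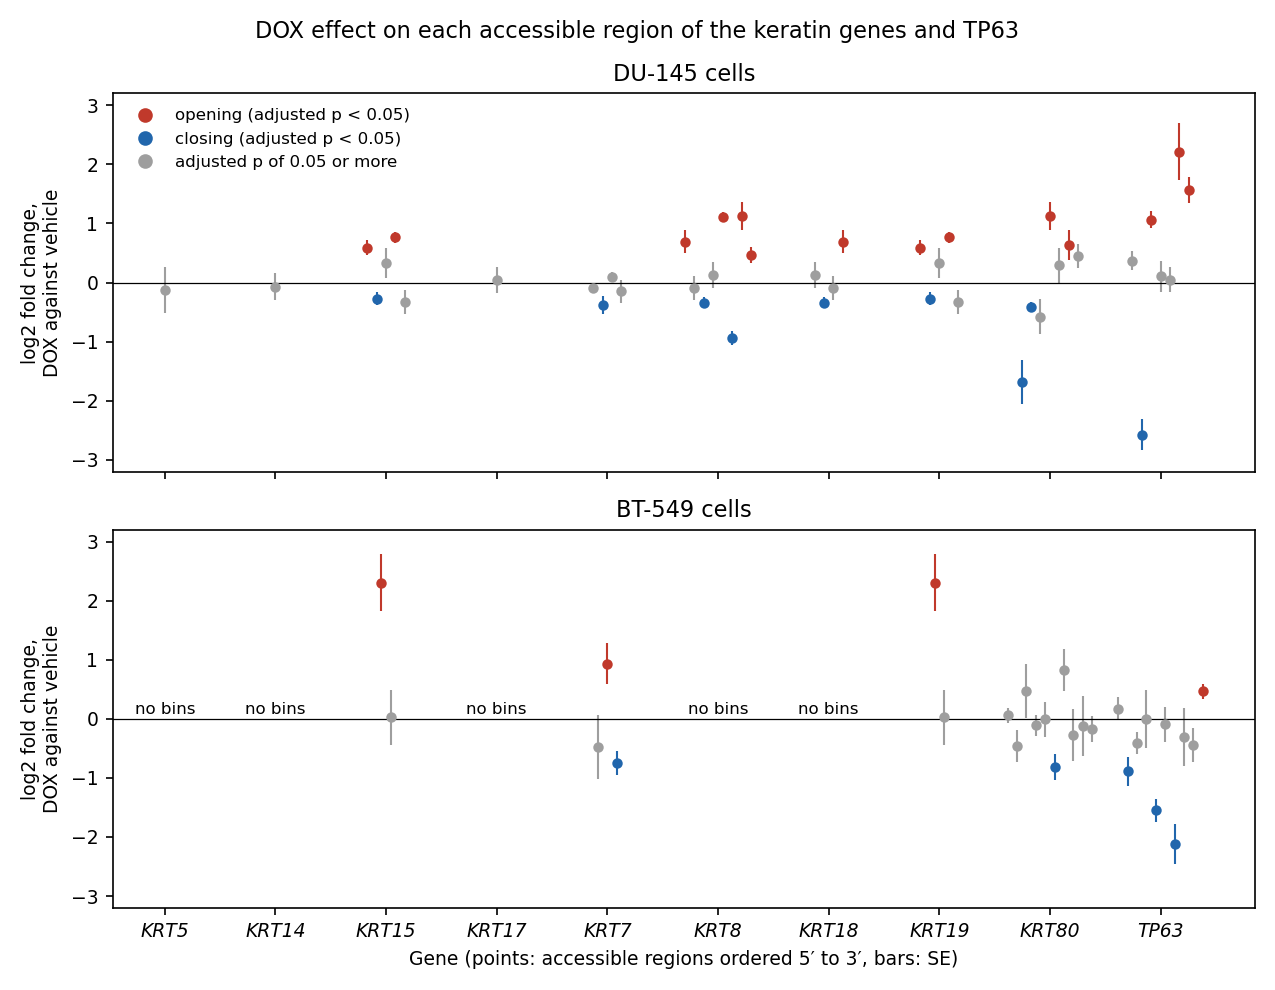
Log2 fold change, DOX against vehicle, of every accessible region in the windows of the 10 genes, with the 34 regions of DU-145 in the upper panel and the 25 of BT-549 in the lower. Bars are 1 standard error, red and blue points opened or closed at an adjusted p under 0.05, grey points did not pass, and a region in the windows of neighbouring genes is drawn at each. Opened and closed regions stand side by side in the KRT8, KRT15 and KRT19, KRT80 and TP63 windows of DU-145, and in BT-549 3 of the 4 called TP63 regions lie below 0.

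The basal pair was almost closed in both lines. In the window of KRT5 (chr12:52514575-52520530, minus strand), the type II keratin of basal cells, DU-145 had 1 region of 400 bp downstream of the gene, with 0.448, 1.73 and 1.5 in vehicle and 1.59, 1.06 and 0.901 in DOX. The groups overlapped and the log2 fold change of -0.12 (SE 0.39) had an adjusted p of 0.82. It was called closed with loess offsets (-0.998, adjusted p = 0.030), as was the KRT5 window with 50 kb on either side (-0.82, adjusted p = 0.0041). KRT14 (chr17:41582279-41586895, minus strand), its type I partner, had 1 region of 500 bp, also downstream, with 3.67, 2.87 and 3.43 in vehicle and 3.14, 3.21 and 3.03 in DOX (log2 fold change -0.07, SE 0.23, adjusted p = 0.82). KRT17 (chr17:41619442-41624842, minus strand), which basal and stressed epithelial cells make, had 1 region of 600 bp past its 3′ end, with 3.43, 3.19 and 4.33 in vehicle and 3.68, 3.93 and 3.62 in DOX (log2 fold change 0.05, SE 0.22, adjusted p = 0.87), while its window with 50 kb on either side rose (0.35, adjusted p = 0.0013). In none of these 3 genes did a region cover the gene start, and the vehicle and DOX libraries overlapped in all 3. A peak summit within 1 kb of the KRT5 start was listed in 1 of 12 libraries, a DU-145 vehicle library, at a fold enrichment of 3.66, and none was listed at the starts of KRT14 and KRT17. KRT14, KRT16 and KRT17 have near-identical copies in the genome, so fragments can be placed on the wrong copy.

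KRT15 (chr17:41513745-41522529, minus strand), a type I keratin of basal cells, and KRT19 (chr17:41523617-41528308, minus strand), a type I keratin of simple epithelia, lie next to each other, and their windows held the same 85 bins in DU-145. Their summed coverage was 93.7, 101 and 99.2 in vehicle and 115, 140 and 119 in DOX, so all DOX libraries lay above all vehicle libraries (log2 fold change 0.35, SE 0.07, adjusted p = 1.2e-04). Of the 5 regions, 2 opened, 1 closed and 2 had no call. The larger change was at the gene start of KRT15, where 7 of its transcripts begin, chr17:41520901-41523200, with 34.1, 36.7 and 37.6 in vehicle and 59.5, 65.3 and 59.5 in DOX, without overlap. It opened 1.70-fold (log2 fold change 0.77, SE 0.09, adjusted p = 4.3e-09), and 0.57 with TMM factors and 0.69 without the GC trend. Peak summits within 1 kb of this start had fold enrichments of 37.1 to 57.4 in vehicle and 78.7 to 89.2 in DOX. The 300 bp around the highest bin also held 1 match of the AP-1 type (TGACTCA), which is not in the printed stretch. The sequence around the highest bin, without annotated exons, is printed to show the opened site, with matches to CATTCC (the TEAD type, the reverse complement of GGAATG) and to CCGCCC (the GC box, the reverse complement of GGGCGG) in capitals, for chr17:41521902-41522100 of hg38 on the plus strand.
From the region over the KRT15 gene start, opened in DU-145: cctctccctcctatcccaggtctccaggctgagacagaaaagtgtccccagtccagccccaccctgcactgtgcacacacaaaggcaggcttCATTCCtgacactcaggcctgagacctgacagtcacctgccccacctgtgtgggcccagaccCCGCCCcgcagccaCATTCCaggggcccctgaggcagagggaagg

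The MANE Select transcript of KRT15, the reference transcript agreed by GENCODE and RefSeq, begins further downstream at 41518890, and the region beside it, chr17:41518901-41520300, had no call (log2 fold change -0.33, SE 0.20, adjusted p = 0.18), while with TMM factors it closed (-0.52, adjusted p = 0.029). The start of KRT19, chr17:41526901-41529000, did not open. It had 31.7, 38.1 and 36.2 in vehicle against 26.2, 33.7 and 27.7 in DOX, with overlap between the groups, and closed by the test (log2 fold change -0.27, SE 0.11, adjusted p = 0.030). The call was lost without vehicle replicate 2 (adjusted p = 0.17), vehicle replicate 3 (0.068), DOX replicate 1 (0.13) or DOX replicate 3 (0.12). A region upstream of KRT19, chr17:41529501-41531100, had 17.9, 15.6 and 17.3 in vehicle against 23.0, 30.9 and 22.0 in DOX, and opened without overlap (log2 fold change 0.59, SE 0.13, adjusted p = 1.8e-04). The KRT15 start and the region upstream of KRT19 thus rose with DOX on either side of a KRT19 start that did not. The KRT19 start was itself accessible in both conditions, with a peak summit within 1 kb in every DU-145 library (fold enrichment 43.5 to 67.2 in vehicle and 32.3 to 55.4 in DOX).

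**Figure D3:**
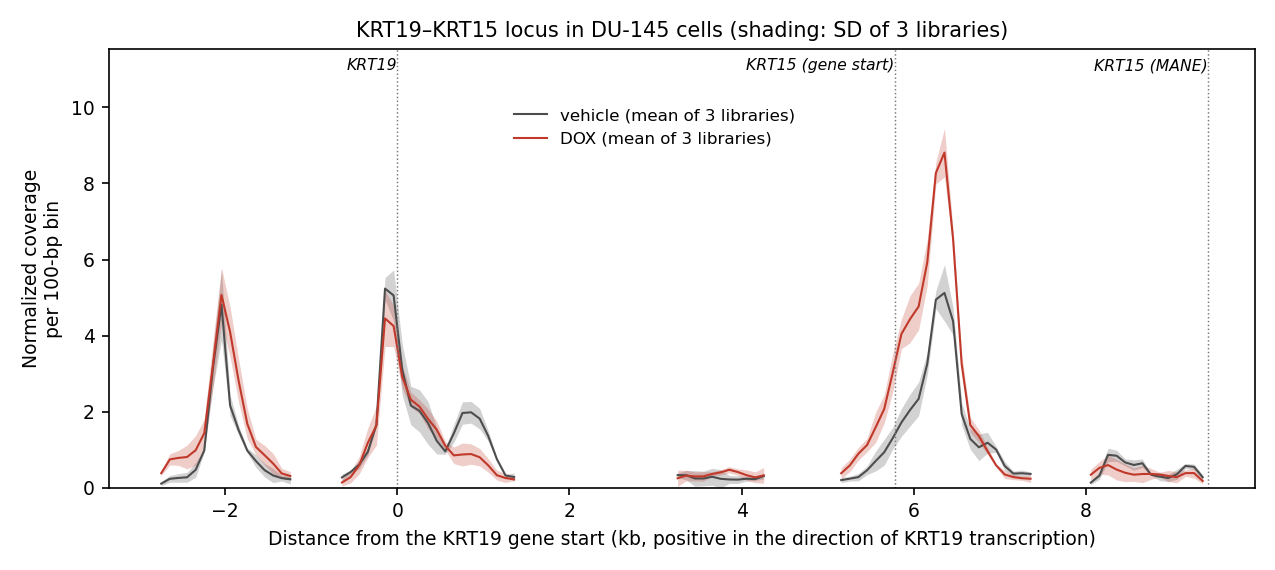
Mean normalized coverage of each 100-bp bin of the KRT19 and KRT15 windows in DU-145, against the distance from the KRT19 start in kb, with bands of 1 SD over 3 libraries and dotted lines at the annotated starts. In DU-145 the highest bin by the KRT15 start goes from 5.12 ± 0.743 in vehicle to 8.81 ± 0.637 in DOX and the highest bin by the KRT19 start from 5.24 ± 0.294 to 4.45 ± 0.738.

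BT-549 had 6 bins in these windows, none of them in the regions over the 2 gene starts of DU-145, with 3.22, 3.28 and 3.22 in vehicle and 5.05, 7.96 and 8.33 in DOX (log2 fold change 1.15, SE 0.33, adjusted p = 0.0075). All 3 DOX libraries lay above the vehicle libraries, on raw sums of 13.0 to 43.8. With the libraries thinned at random to equal sums, the call was kept in 1 draw (adjusted p = 0.039) and lost in a second draw (0.11). Of 2 regions, 1 opened, chr17:41530101-41530400 upstream of KRT19, which lies inside the region that opened in DU-145. It had 0.570, 1.36 and 1.02 in vehicle against 2.44, 5.29 and 6.73 in DOX, a ratio of 4.91 (log2 fold change 2.31, SE 0.47, adjusted p = 4.8e-04). The other region, chr17:41519101-41519400 beside the MANE Select start of KRT15, had no call (log2 fold change 0.03, SE 0.46, adjusted p = 0.98). A peak within 1 kb of that start was listed in all 3 vehicle libraries (fold enrichment 5.26 to 6.70) and in none of the shallower DOX libraries. A peak within 1 kb of the KRT15 gene start, where the table has no bin, was listed in none of the vehicle libraries and in 2 of 3 DOX libraries (3.96 to 5.17). Peaks were listed over the upstream region in 1 of 3 vehicle libraries (fold enrichment 3.35) and in 2 of 3 DOX libraries (5.28 to 7.24), and in all 6 DU-145 libraries at 36.3 to 61.1. The sequence of this site is printed on the plus strand of hg38 because it opened in BT-549 and lies inside the longer region that opened in DU-145. In DU-145 its 3 bins, which were not tested for DOX on their own, had 9.94, 7.36 and 8.17 in vehicle against 10.6, 14.0 and 11.3 in DOX. The capitals mark a match to TGAGTCA (the AP-1 type, the reverse complement of TGACTCA) that runs into a match to CATTCC.
Upstream of KRT19, opened in BT-549, chr17:41530101-41530400: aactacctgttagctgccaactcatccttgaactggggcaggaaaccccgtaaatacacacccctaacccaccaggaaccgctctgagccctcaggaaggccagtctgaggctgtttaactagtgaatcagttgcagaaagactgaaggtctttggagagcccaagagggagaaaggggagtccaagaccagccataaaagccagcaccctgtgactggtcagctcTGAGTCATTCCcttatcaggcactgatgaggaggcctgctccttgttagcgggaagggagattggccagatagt

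KRT8 (chr12:52897187-52949954, minus strand) and KRT18 (chr12:52948871-52952906, plus strand), the partners of simple epithelia, lie head to head, since some KRT8 transcripts start beside KRT18. The MANE Select transcript of KRT8 starts at 52905076, and an alternative transcript, KRT8-215, starts between them at 52926469. The window of KRT8 had 180, 187 and 203 in vehicle against 208, 258 and 224 in DOX, which did not overlap (log2 fold change 0.28, SE 0.07, adjusted p = 6.5e-04). That of KRT18 had 59.8, 66.7 and 71.2 in vehicle against 53.4, 65.5 and 55.4 in DOX, with overlap and no call (log2 fold change -0.18, SE 0.09, adjusted p = 0.089). KRT18 was called down in the gene body (-0.31, adjusted p = 0.0054), within 1 kb of the gene start (-0.33, 0.0057) or the MANE Select start (-0.35, 0.0021), with the replicate block (0.044), in the first draw of thinned libraries (-0.24, 0.033) and without vehicle replicate 1 (0.035) or DOX replicate 2 (0.011). Of the 8 regions in the KRT8 window, 4 opened, 2 closed and 2 had no call.

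The 2 closed regions were at the reference starts. The start of the MANE Select transcript of KRT8, chr12:52903001-52905600, had 51.0, 46.9 and 51.4 in vehicle against 19.2, 32.2 and 25.9 in DOX. Every DOX library lay below every vehicle library, and the mean was 1.93-fold lower (log2 fold change -0.94, SE 0.12, adjusted p = 2.2e-08). The fold enrichment of its peaks was 45.1 to 62.3 in vehicle and 22.3 to 43.9 in DOX. The region over the KRT18 start, chr12:52948401-52950400, which also holds the starts of the long KRT8 transcripts, had 48.0, 51.4 and 54.4 in vehicle against 37.6, 46.7 and 36.8 in DOX and closed without overlap (log2 fold change -0.34, SE 0.10, adjusted p = 0.0029). Its call was lost with loess offsets, a scaling that follows the level of coverage (adjusted p = 0.054) and on its highest bin alone (0.12).

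An opening stood between them. The region at the start of KRT8-215, chr12:52924101-52928100, had 51.8, 55.2 and 53.5 in vehicle against 109, 128 and 111 in DOX. It opened 2.17-fold with every DOX library above every vehicle library (log2 fold change 1.12, SE 0.08, adjusted p = 6.5e-14), and by 0.93 with TMM factors and 0.84 without the GC trend on the log2 scale. A region in intron 5 of KRT8, chr12:52898601-52899700, went from 1.83, 1.87 and 2.55 to 3.84, 4.38 and 5.15 (log2 fold change 1.12, SE 0.24, adjusted p = 1.7e-04). The last 2 openings, downstream of KRT8 (chr12:52895101-52897200, log2 fold change 0.46) and downstream of KRT18 (chr12:52953001-52954600, 0.69), had overlapping libraries and lost their call without the GC trend (adjusted p = 0.31 and 0.32). Within the region at the KRT8-215 start, the bin that holds the start went from 1.97 ± 0.173 in vehicle to 5.75 ± 0.791 in DOX, and the highest bin, upstream of it, from 6.15 ± 0.614 to 8.03 ± 0.266. The stretch around this highest bin is printed because its region had the smallest adjusted p of the openings in this window, and it does not hold the start itself. It is given on the plus strand of hg38, which is the template side of KRT8, and the capitals mark the AP-1 type TGACTCA.
Highest bin of the region opened at KRT8-215, upstream of the start, chr12:52927301-52927600: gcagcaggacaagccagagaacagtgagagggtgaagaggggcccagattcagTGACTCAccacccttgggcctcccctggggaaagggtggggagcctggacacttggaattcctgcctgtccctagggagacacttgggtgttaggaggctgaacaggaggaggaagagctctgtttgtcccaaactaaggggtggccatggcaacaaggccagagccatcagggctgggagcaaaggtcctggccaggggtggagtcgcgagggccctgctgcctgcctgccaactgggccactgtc

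**Figure D4:**
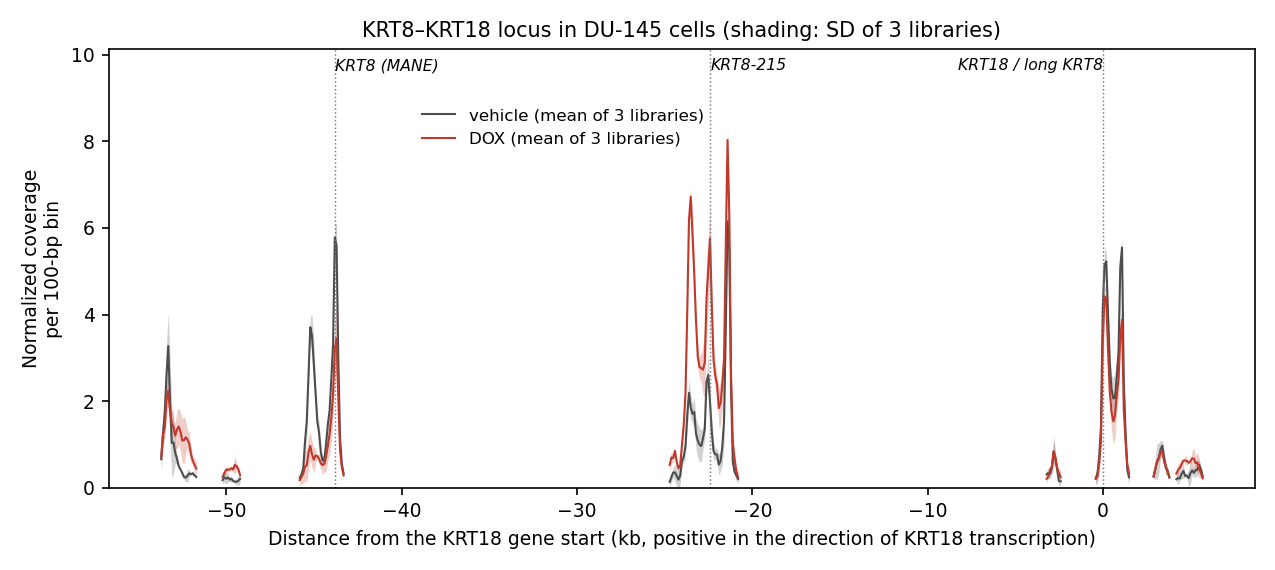
Mean normalized coverage of each 100-bp bin of the KRT8 and KRT18 windows in DU-145, against the distance from the KRT18 start in kb, with bands of 1 SD over 3 libraries and dotted lines at the annotated starts. The bins at the MANE Select start of KRT8 fall with DOX while the mean in the bin of the KRT8-215 start goes from 1.97 to 5.75 and that in the highest bin upstream of it from 6.15 to 8.03.

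In BT-549 no bin of the table lay in the KRT8 and KRT18 windows. The peak lists held a weak peak at the KRT18 start in 2 of 3 vehicle libraries (fold enrichment 4.16 to 4.19) and in 1 of 3 DOX libraries (3.96), against 38.5 to 70.0 in DU-145 at the same start. KRT8, KRT18 and KRT19 have processed pseudogenes elsewhere in the genome, and how fragments that match several places were treated is not given in the sources used here.

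KRT7 (chr12:52232520-52252186, plus strand), a type II keratin of simple and glandular epithelia, had the most accessible window of DU-145 per kb, and it showed no call. It had 213, 222 and 226 in vehicle against 195, 251 and 217 in DOX, with overlap (log2 fold change 0.01, SE 0.07, adjusted p = 0.92, 95% interval -0.12 to 0.14). The region over its start, chr12:52230101-52237200, had 67.6, 69.7 and 72.6 in vehicle against 60.3, 72.9 and 63.9 in DOX (log2 fold change -0.09, SE 0.08, adjusted p = 0.39). It closed with TMM factors (-0.28, adjusted p = 0.0069), RLE factors and DESeq2 (-0.33, 0.0016 each) and on its highest bin (-0.53, 4.3e-04). A region of intron 4, chr12:52238001-52240600, closed from 13.2, 12.8 and 12.3 to 7.30, 10.6 and 11.4 (log2 fold change -0.38, SE 0.16, adjusted p = 0.039), but not without vehicle replicate 1 (adjusted p = 0.082), vehicle replicate 2 (0.086) or DOX replicate 1 (0.24). The highest region, chr12:52240901-52255800 with a summit in intron 6, had 124, 132 and 134 in vehicle against 123, 159 and 136 in DOX and no call.

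In BT-549 the KRT7 window had 28.2, 38.5 and 34.8 in vehicle against 29.9, 29.0 and 20.6 in DOX, with overlap and no call (log2 fold change -0.37, SE 0.18, adjusted p = 0.12), though with 50 kb on either side it fell (-0.24, adjusted p = 0.021). Its 2 called regions went opposite ways. The intron 6 region, chr12:52243401-52244800, fell from 21.8, 31.1 and 29.3 to 19.1, 15.7 and 14.4 without overlap (log2 fold change -0.75, SE 0.21, adjusted p = 0.0065), and its adjusted p was 0.053 without vehicle replicate 2. The region nearest to the start, chr12:52232901-52233700 with its summit in a coding exon, had 4.47, 5.33 and 3.31 in vehicle against 8.16, 12.4 and 5.12 in DOX, which overlapped (log2 fold change 0.93, SE 0.34, adjusted p = 0.039). That call was lost without the GC trend (adjusted p = 0.11), with libraries thinned at random to equal sums (0.12 and 0.066 in 2 draws) and without any of vehicle replicates 1, 2 and 3 or DOX replicates 1 and 2 (0.058 to 0.25).

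KRT80 (chr12:52168996-52192014, minus strand) was the only gene of the 10 with a peak at its start in every library of both lines. In DU-145 the region over the start, chr12:52190801-52193100, had 84.4, 78.2 and 72.2 in vehicle against 51.6, 64.9 and 59.2 in DOX. It closed without overlap (log2 fold change -0.41, SE 0.09, adjusted p = 1.2e-04), and the peaks there had fold enrichments of 89.0 to 128 in vehicle and 62.0 to 93.8 in DOX. A small region upstream, chr12:52194101-52194600, went from 2.16, 2.06 and 2.14 to 0.651, 0.319 and 0.984, a 3.25-fold lower mean (log2 fold change -1.69, SE 0.37, adjusted p = 2.1e-04). In DU-145 this region had peaks in all 3 vehicle libraries and in no DOX library, so it entered the table through vehicle. A region of intron 1, chr12:52186101-52186800, opened from 2.56, 2.38 and 1.78 to 4.17, 4.94 and 5.55 (log2 fold change 1.12, SE 0.23, adjusted p = 1.1e-04), so the start and the intron of KRT80 moved in opposite directions. The whole window had 103, 95.8 and 84.6 in vehicle against 68.6, 84.9 and 83.3 in DOX, which overlapped, and fell by the test (log2 fold change -0.26, SE 0.08, adjusted p = 0.0093). This call was lost without the GC trend (-0.15, adjusted p = 0.11), without vehicle replicate 1 (0.074) and without DOX replicate 1 (0.066).

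In BT-549 the KRT80 window had 168, 175 and 157 in vehicle and 139 to 184 in DOX, with overlap and no call (log2 fold change -0.10, SE 0.10, adjusted p = 0.45). The start region, chr12:52190801-52193500, had 67.4, 69.0 and 57.9 in vehicle against 57.4, 84.0 and 61.7 in DOX (log2 fold change 0.06, SE 0.13, adjusted p = 0.79). The peaks at the start had fold enrichments of 36.9 to 48.9 in vehicle and 15.5 to 19.8 in DOX, and this fold is not scaled for depth, which was lower in the DOX libraries. Among its 10 regions, 1 was called, in intron 2 (chr12:52181601-52182500), which closed from 21.9, 21.0 and 22.2 to 14.2, 12.3 and 10.5 (log2 fold change -0.82, SE 0.22, adjusted p = 0.0048).

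TP63 (chr3:189631389-189897276, plus strand) had no accessible region at any annotated start in either line. None of its 8 distinct transcript starts lay within 1 kb of a bin in the DU-145 or BT-549 table, and none had a peak summit within 1 kb in any of the 12 libraries. Its coverage came from introns 1, 3 and 4. The DU-145 window had 28.7, 31.4 and 32.9 in vehicle against 46.5, 40.5 and 44.5 in DOX, without overlap (log2 fold change 0.50, SE 0.10, adjusted p = 5.5e-05). In BT-549 it had 203, 195 and 190 in vehicle against 172, 169 and 161 in DOX, also without overlap (log2 fold change -0.23, SE 0.08, adjusted p = 0.033). The TP63 bins had 40.2% (DU-145) and 39.6% (BT-549) GC, against medians of 55.2% and 58.5% over all windows, and neither window change was called without the GC trend (-0.02, adjusted p = 0.84, and 0.16, adjusted p = 0.15). The BT-549 call was also lost without vehicle replicate 1 (adjusted p = 0.18), vehicle replicate 2 (0.053) or DOX replicate 3 (0.11), and in both draws of thinned libraries (0.052 and 0.056).

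Several single TP63 regions were called under that fit too. In DU-145 intron 1, chr3:189700001-189700400 went from 4.91, 5.16 and 6.02 to 0.820, 1.0 and 0.838. It was 6.06-fold lower, with a peak in all 3 vehicle libraries (fold enrichment 18.2 to 23.2) and in none of the DOX libraries (log2 fold change -2.58, SE 0.26, adjusted p = 3.4e-10, and -3.23 without the GC trend). The region entered the table through its vehicle peaks, so the peak counts are no separate support for the fall. Another intron 1 region, chr3:189710501-189711400, rose from 7.94, 7.34 and 8.24 to 17.8, 15.4 and 15.9 (log2 fold change 1.06, SE 0.15, adjusted p = 1.4e-07, and 0.39 with an adjusted p of 0.021 without the GC trend). In intron 4, chr3:189824401-189825000 rose from 2.83, 1.91 and 2.81 to 6.70, 6.97 and 8.11 (log2 fold change 1.56, SE 0.22, adjusted p = 1.7e-07) and chr3:189820101-189820500 from 0.554, 0.384 and 0.0364 to 1.55, 1.49 and 1.71 (2.22, SE 0.48, adjusted p = 1.6e-04). The latter had peaks in all 3 DOX libraries and in no vehicle library, so it entered the table through DOX. Within intron 1, chr3:189700001-189700400 thus closed and chr3:189710501-189711400 opened, while both named regions of intron 4 opened.

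In BT-549, 3 TP63 regions closed and 1 opened. The intron 1 site that rose in DU-145 fell here, with chr3:189710301-189711700 going from 37.9, 36.4 and 35.6 to 9.36, 13.0 and 14.9, a 2.96-fold lower mean (log2 fold change -1.55, SE 0.20, adjusted p = 8.5e-07, and -1.03 without the GC trend). In intron 3, chr3:189772401-189773500 fell from 12.4, 11.3 and 14.2 to 2.45, 4.0 and 2.59 (log2 fold change -2.12, SE 0.33, adjusted p = 2.0e-05). This region had peaks in all 3 vehicle libraries and in none of the shallower DOX libraries, so it entered the table through vehicle. The third, chr3:189685701-189686600 in intron 1, fell from 15.4, 19.1 and 17.0 to 7.80, 11.7 and 8.67 (log2 fold change -0.89, SE 0.25, adjusted p = 0.0069), a call lost without the GC trend (-0.32, adjusted p = 0.39). The highest TP63 region of BT-549, chr3:189861501-189863800 in intron 4, rose from 57.4, 54.1 and 49.3 to 71.3, 77.9 and 72.8 (log2 fold change 0.46, SE 0.12, adjusted p = 0.0040). A DU-145 library had 6 to 7 peaks in the TP63 window with vehicle and 8 to 10 with DOX. A BT-549 library had 14 to 15 with vehicle and 5 to 6 with DOX, and these numbers also follow the depth. Both intron 1 sites are printed on the plus strand of hg38, the first because its peak was lost in DU-145 and the second because it moved in opposite directions in the lines. The capitals mark AACAGGTT, of the Grainyhead type, and the second site held none of the motifs searched.
TP63 intron 1, closed in DU-145, chr3:189700001-189700300: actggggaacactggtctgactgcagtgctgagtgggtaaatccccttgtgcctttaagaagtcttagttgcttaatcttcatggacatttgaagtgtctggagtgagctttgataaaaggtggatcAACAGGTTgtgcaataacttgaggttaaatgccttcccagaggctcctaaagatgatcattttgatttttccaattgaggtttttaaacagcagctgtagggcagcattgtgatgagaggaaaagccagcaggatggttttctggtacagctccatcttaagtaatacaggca
TP63 intron 1, opened in DU-145 and closed in BT-549, chr3:189710601-189710900: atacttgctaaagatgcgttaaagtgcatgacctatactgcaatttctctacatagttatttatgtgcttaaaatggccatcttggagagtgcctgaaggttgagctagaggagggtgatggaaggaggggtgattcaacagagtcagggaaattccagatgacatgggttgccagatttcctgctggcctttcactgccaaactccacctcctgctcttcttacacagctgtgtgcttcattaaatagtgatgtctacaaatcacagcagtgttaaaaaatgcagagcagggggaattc

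To compare the lines, windows were summed over bins present in both tables, which left the same 5 genes. In vehicle, BT-549 was higher at TP63, with 59.1, 62.3 and 58.4 against 17.8, 17.5 and 19.0 in DU-145 (log2 difference 1.73, SE 0.11, adjusted p = 5.0e-16), and at KRT80, with a mean of 119 ± 9.06 against 91.6 ± 9.39 (0.38, SE 0.08, adjusted p = 8.3e-05). It was lower at KRT7, with 33.8 ± 5.21 against 75.1 ± 1.2 (-1.16, SE 0.10, adjusted p = 3.4e-12), and at the shared bins of KRT15 and KRT19, with 3.24 ± 0.0379 against 9.68 ± 1.15 (-1.58, SE 0.20, adjusted p = 2.0e-08). All 5 windows differed, 2 of them higher and 3 lower in BT-549, against 45.0% and 32.4% of 15724 windows, with medians of -1.16 over the 5 and 0.13 over all. The TP63 difference was 0.82 without the GC trend. That of KRT80 was 0.25 with TMM factors (edgeR, adjusted p = 0.0052) and 0.28 without the GC trend (0.0017). The region over the KRT80 start was lower in BT-549, as given below. Copy number and accessibility cannot be told apart between the lines.

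Of the 5 windows, TP63 passed the test for a DOX effect that differed between the lines, made by the interaction of line and DOX in all 12 libraries. With DOX its shared bins had 35.3, 30.8 and 34.9 in DU-145, above the vehicle libraries, and 24.1, 32.2 and 26.3 in BT-549, below them. The difference of the effects was -2.02 on the log2 scale (SE 0.18, adjusted p = 2.0e-11, and -1.31 without the GC trend, adjusted p = 4.8e-07). None of the 5 windows had a higher effect in BT-549 by the test and 1 a lower one, against 33.7% and 9.98% of all windows, and the median difference was 0.22 both over the 5 and over all. The scaling decides this split, since 77.1% of all called windows were higher with the library sums, 48.8% with TMM factors and 52.7% without the GC trend, and under either of the last 0 of the 5 were higher and 2, TP63 and KRT7, lower. At KRT7 the difference was -0.26 (SE 0.19, adjusted p = 0.26), and it was called with TMM factors (-0.48, adjusted p = 0.041), DESeq2 (-0.46, 0.049) and without the GC trend (-0.51, 0.028). At KRT15 and KRT19 it was 0.72 (SE 0.34, adjusted p = 0.083), with a call on all bins of each table (0.80, adjusted p = 0.017) and without DU-145 DOX replicate 2 (0.046) or BT-549 DOX replicate 1 (0.036), and at KRT80 0.22 (SE 0.14, adjusted p = 0.21).

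Runs of bins present in both tables gave 14 regions of these genes. In vehicle, 8 were higher and 4 lower in BT-549, against 53.5% and 23.0% of 32671 such regions, with medians of 0.88 and 0.47. Of all called regions, 69.9% were higher in BT-549 with the library sums, 50.4% with TMM factors and 50.2% without the GC trend, and the counts of the 14 were then 6 higher and 5 lower with TMM factors and 5 and 5 without the GC trend. The DOX effect was higher in BT-549 at 3 and lower at 6, against 17.8% and 22.0%, with medians of -0.66 and -0.06. Of all called regions, 44.7% had the higher effect in BT-549, against 58.2% without the GC trend (2 higher and 4 lower of the 14) and 29.3% with sums of the bins in both tables (2 and 7). At TP63 intron 1, chr3:189710501-189711400, coverage went from 7.84 ± 0.457 to 16.3 ± 1.25 in DU-145 and from 32.6 ± 1.88 to 11.4 ± 2.99 in BT-549, a difference of -2.56 (SE 0.25, adjusted p = 9.7e-11). Upstream of KRT19, chr17:41530101-41530400 went from 8.49 ± 1.32 to 12 ± 1.80 in DU-145 and from 0.983 ± 0.396 to 4.82 ± 2.18 in BT-549, so the change was larger in BT-549 (1.82, SE 0.45, adjusted p = 0.0013) and its BT-549 DOX libraries lay under the DU-145 vehicle libraries. The intron 1 region of KRT80, chr12:52186101-52186800, was 2.24 ± 0.409 in DU-145 vehicle and 21.2 ± 3.34 in BT-549 vehicle (log2 difference 3.22, adjusted p = 6.1e-17). The KRT80 start, chr12:52190801-52193100, went the other way, with 78.3 ± 6.1 in DU-145 vehicle and 62.4 ± 5.91 in BT-549 vehicle (-0.32, SE 0.09, adjusted p = 0.0015, and -0.74 with TMM factors).

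**Figure D5:**
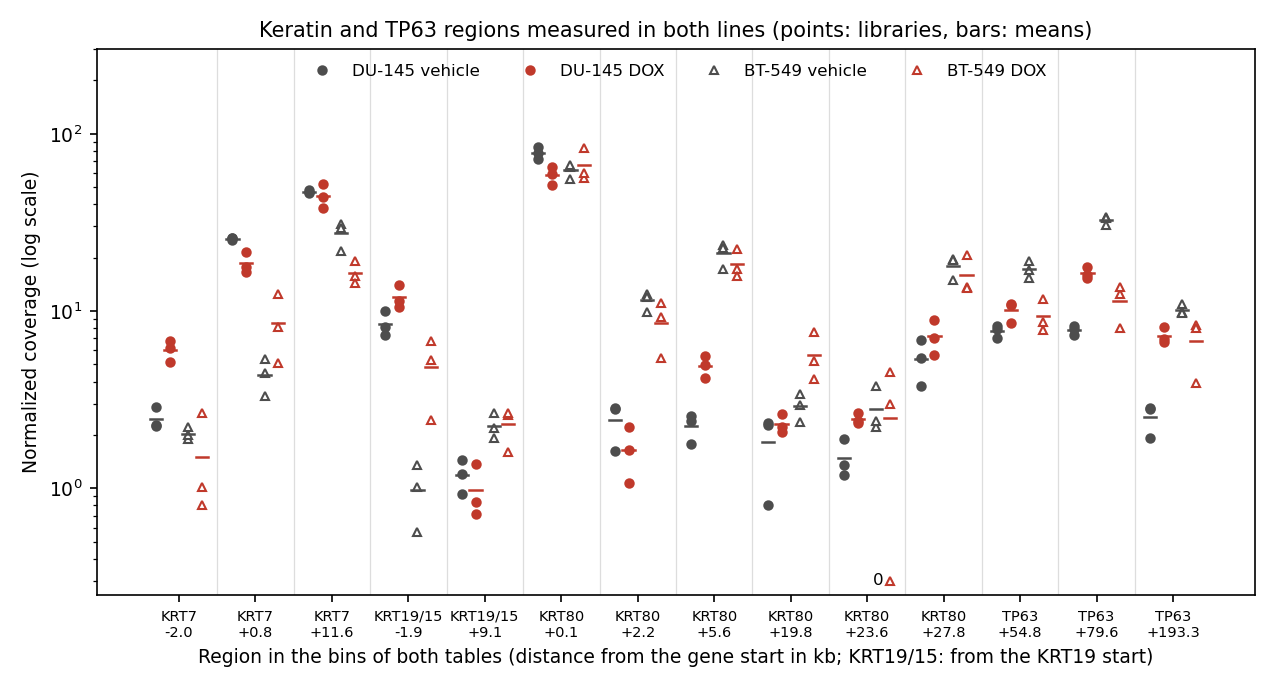
Normalized coverage (log axis) of the 14 regions made of bins present in both tables, with 1 point per library and bars for the means of 3, for vehicle and DOX in DU-145 (circles) and BT-549 (triangles), grey for vehicle and red for DOX. Labels give the distance from the gene start in kb, and 1 BT-549 DOX library with a value of 0 is drawn at the lower edge and marked 0. The mean of each of the 3 TP63 regions is higher with DOX in DU-145 and lower with DOX in BT-549.

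Other genes were taken from lists by their role and not by their change. Their counts stand against 20.0% of all windows that rose and 31.0% that fell in DU-145, 18.2% and 13.1% in BT-549, and 45.0% that were higher and 32.4% lower in BT-549 than in DU-145 vehicle cells. Of 19 other epithelial keratins, 12 had a testable window in DU-145, of which 3 rose, 4 fell and 5 had no call (median -0.002), which is near the share over all windows. The hyperproliferation keratin KRT6B rose from 4.92 ± 1.0 to 25.0 ± 0.780 (log2 fold change 2.37, adjusted p = 2.3e-14) and the epidermal KRT2 from 2.43 ± 0.840 to 6.58 ± 1.24 (1.5, adjusted p = 3.6e-06), while the corneal KRT3 fell from 38.5 ± 0.687 to 24.0 ± 2.34 (-0.69, adjusted p = 1.3e-06). KRT6A and KRT6C, near copies of KRT6B, had no testable window, so fragments of the 3 may be placed on the wrong copy. None of the 19 had a testable window in BT-549. KRT6B was called in DU-145 where KRT5, KRT14 and KRT17 were not.

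Desmosomes and hemidesmosomes anchor keratin filaments to the membrane. In DU-145, 7 of their 19 genes rose, 4 fell and 8 had no call (median 0.13, against 20.0% and 31.0% of all windows), led by the laminin chain gene LAMB3 (161 ± 5.5 to 272 ± 7.55, log2 fold change 0.75, adjusted p = 1.2e-12), the hemidesmosomal collagen gene COL17A1 (22.8 ± 0.153 to 50.8 ± 1.32, 1.16, adjusted p = 8.5e-12) and the basal desmoglein gene DSG3 (22.7 ± 1.47 to 46.9 ± 0.410, 1.05, adjusted p = 1.4e-10). In BT-549, 5 of 18 rose, 1 fell and 12 had no call (median 0.18, against 18.2% and 13.1% of all windows), led by the plakophilin gene PKP3 (0.94, adjusted p = 1.2e-04). In vehicle, 13 of 18 were lower and 3 higher in BT-549 than in DU-145 (median -0.45, against 32.4% and 45.0%), with the plakophilin gene PKP2 lower (3.91 ± 0.686 against 33.1 ± 3.44).

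Genes of epithelial junctions and polarity gave 8 up, 2 down and 9 without a call of 19 in DU-145 (median 0.10, against 20.0% and 31.0% of all windows) and 5 up, 0 down and 11 without a call of 16 in BT-549 (median 0.32, against 18.2% and 13.1%), where CLDN3 and EPCAM had no testable window. The smallest adjusted p in DU-145 was that of TJP1, which rose (171 ± 8.06 to 262 ± 3.85, log2 fold change 0.62, adjusted p = 9.8e-11). The claudin gene CLDN4, 1 of the 2 that went down in DU-145, fell there (220 ± 5.0 to 158 ± 7.44, log2 fold change -0.47, adjusted p = 3.5e-08) and rose in BT-549 (58.0 ± 6.32 to 99.9 ± 10.4, 0.79, adjusted p = 3.9e-06). In vehicle, 9 of 16 were lower and 1 higher in BT-549 (median -0.29, against 32.4% and 45.0%). Of the epithelial transcription factors, 5 rose, 5 fell and 7 had no call of 17 in DU-145 (median 0.03). KLF5 (-0.48, adjusted p = 6.5e-07) and ELF3 (-0.40, adjusted p = 7.1e-07) went down there and GATA3 up (0.61, adjusted p = 9.3e-06). In BT-549, 5 rose, 2 fell and 10 had no call of 17 (median 0.17), led by the p63 relative TP73 (149 ± 15.1 to 209 ± 35.6, 0.49, adjusted p = 2.2e-04). Between the lines in vehicle, 7 of 17 were higher and 8 lower in BT-549 (median 0.12).

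Mesenchymal genes mark cells such as fibroblasts, which lack these keratins. In DU-145, 3 of 15 rose, 2 fell and 10 had no call (median -0.03, against 20.0% and 31.0% of all windows), with PRRX1 from 9.08 ± 1.27 to 23.3 ± 3.31 (log2 fold change 1.34, adjusted p = 2.0e-09). In BT-549, 5 of 18 rose, 3 fell and 10 had no call (median 0.14, against 18.2% and 13.1%), with the matrix gene SPARC down (206 ± 2.2 to 110 ± 5.54, -0.90, adjusted p = 1.2e-09) and ZEB1, a repressor of epithelial genes, up (41.4 ± 3.69 to 83.1 ± 13.7, 1.01, adjusted p = 3.6e-07). In vehicle, 10 of 14 were higher and 3 lower in BT-549 (median 0.54, against 45.0% and 32.4%). Of the prostate markers, 0 of 3 changed in DU-145 and 2 of 4 fell in BT-549 (median -0.55), where TMPRSS2 fell from 234 ± 13.3 to 29.7 ± 6.6 (-2.98, adjusted p = 9.7e-20), and of 3 windows in both lines 2 were higher and 1 lower in BT-549 (median 1.19). Of the luminal breast markers, 3 rose and 3 fell of 7 in DU-145 (median -0.21), 2 of 5 fell in BT-549 (median 0.09), and of 5 in both lines 3 were higher and 2 lower in BT-549 (median 0.36). The medians of all windows were -0.06 in DU-145, 0.04 in BT-549 and 0.13 between the lines.

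Motifs were searched on both strands in 300 bp around the highest bin of each region. TGACTCA (AP-1 type) was held by 13 of the 34 DU-145 regions of these genes, against 30.0% of all DU-145 regions, and by 8 of 25 in BT-549, against 17.2%. GGAATG (TEAD type) was held by 9 of 34 (21.3% of all) and 8 of 25 (18.4%), and GGGCGG (GC box) by 8 of 34 (21.1%) and 3 of 25 (31.0%). GCCNNNGGC (AP-2 type) was held by 5 of 34 (16.0%) and 0 of 25 (21.9%), and AACCNGTT (Grainyhead type) by 1 of 34 (1.87%) and 0 of 25 (1.68%). The p53-family core, searched as CATG, 6 bases of any kind and CATG, was held by 0 of 34 (0.962%) and 0 of 25 (0.620%). These shares describe letters in the windows and were not tested.

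The genes whose windows followed these most closely over the 12 libraries, by Pearson's r of log2 coverage on shared bins, were ANXA11 (0.998) and FSCN2 (0.997) for KRT7, RHOF (0.999) and EPHB2 (0.998) for KRT15 and KRT19, DNAJC8 (0.985) and BYSL (0.985) for KRT80, and SLIT3 (0.998) and GPC6 (0.998) for TP63. The libraries share the difference between the lines, and 15688 or 15689 genes were compared for each, so these values are a description only.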

How the data were processed

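ATAC-seq was performed in DU-145/tet-MUC1shRNA and BT-549/tet-MUC1shRNA cells, with 3 vehicle and 3 DOX libraries per line, grouped by their labels. The deposited bin values are estimated counts, which the authors took as mean fragment coverage per bin after alignment with BWA, duplicate removal with Picard and per-replicate peak calling with MACS2 (2.2.7.1), and did not scale for depth. For each peak, the authors gave a fold enrichment over background (a ratio) and the -log10 of its p-value and q-value, and the latter served only for a stricter peak threshold (q of 0.01). Both tables use GRCh38.

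The bins of each gene window (GENCODE 44) and of each run of adjoining bins were summed and rounded, since they are not whole numbers. Library sizes were the sums of the whole table. Features with a total of at least 10 were tested by the robust quasi-likelihood method of edgeR 4.0.16 (R 4.3.3) with Benjamini-Hochberg adjustment over all features of the comparison, and the standard error was the log2 fold change divided by the square root of F. DOX was compared with vehicle within each line, the lines in vehicle, and the difference of the DOX effects by an interaction term. The 26 protein-coding genes that share a symbol with another were left out. On simulated windows of DU-145 and BT-549, 99% and 94% of 2-fold changes were recovered, and 61% on the regions of either line. Of 1.5-fold changes, 91% and 66% were recovered on the windows and only 20% and 21% on the regions. Of the calls on simulated regions, 7.96% and 5.75% were false. Changes were placed in 100 features per fold, all with coverage above the limit for testing, so recovery at the weakest features was not tested. p-values measure the spread between 3 replicates.

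Alternatives were TMM and RLE factors, loess offsets, removal of the GC trend, DESeq2 1.42.0, limma 3.58.1 on log2 normalized coverage with a pseudocount of 1, other filters, windows and peak limits, libraries thinned at random to equal sums, the replicate number as a block, and each library left out. All 10 genes are named. In each window the text names the region over the gene start, the highest in vehicle and that with the smallest adjusted p, and of each gene list at most 3 genes by adjusted p. Other called regions, the regions in both tables and the printed sequences were chosen after their values were seen. The genes and lists were chosen with earlier results of these data known. Expression data were not used here. Some items are not reported here.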

Additional observations from a re-analysis of the deposited data

Results flagged for a closer look

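The DOX effect differed between the lines, by the interaction of line and DOX (edgeR with Benjamini-Hochberg adjustment over all features), at the following features, each given as the BT-549 effect minus the DU-145 effect on the log2 scale. At the 24 shared bins of the TP63 window the difference was -2.02 (adjusted p = 2.0e-11), while over the full windows the effects were 0.50 in DU-145 and -0.23 in BT-549. In TP63 intron 1 it was -1.26 at chr3:189685701-189686600 (adjusted p = 4.5e-04) and -2.56 at chr3:189710501-189711400 (9.7e-11), and in intron 4 it was -2.17 at chr3:189824401-189825000 (4.4e-06). In the KRT7 window it was -1.78 at chr12:52230401-52230700 (adjusted p = 0.0057), 1.37 at chr12:52232901-52233700 (6.1e-04) and -0.69 at chr12:52243401-52244800 (0.011). Upstream of KRT19 it was 1.82 at chr17:41530101-41530400 (adjusted p = 0.0013). At KRT80 it was -1.32 in intron 1, chr12:52186101-52186800 (adjusted p = 5.4e-04), and 0.49 at the start, chr12:52190801-52193100 (0.013).

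With the GC trend removed, the call was lost at chr12:52230401-52230700 of KRT7 (-1.06, adjusted p = 0.12), at the KRT80 start (0.35, adjusted p = 0.080) and at chr3:189685701-189686600 of TP63 (-0.21, adjusted p = 0.61). The KRT80 start was also not called without BT-549 DOX replicate 2 (0.31, adjusted p = 0.12). The BT-549 DOX libraries are the shallowest, and the part of depth in these differences was not tested.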

How the results depend on the processing

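Of 172 recomputed counts, 157 stayed within 1.5 times the reported count, and of 1296 recomputed single values 1152 kept direction and call, 34 gained a call, 51 lost it and 59 changed sign. Precision is limited by the BT-549 DOX depth, by the few bins of KRT5, KRT14, KRT17 and of KRT15 and KRT19 in BT-549, and by 3 replicates. TP63 lies in DNA of low GC content and depends most on the GC trend. The windows around MANE Select starts, the regions in both tables, the scaling by shared bins, the second draw of thinned libraries and the GC trend for the comparison of lines were chosen after seeing the data. The cause of the changes below was not tested.

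Calls among the DU-145 windows went from 5 to 3 without the GC trend. Among the BT-549 windows they went from 3 to 1 in the gene body, 0 within 1 kb of the gene start (edgeR, 2 genes tested, 1 at an unadjusted p under 0.05), 1 within 1 kb of the MANE Select start and 0 in the second draw of thinned libraries (edgeR, 3 at an unadjusted p under 0.05), against 2 in the first draw. For the difference between the lines, 1 window became 2 with TMM factors, DESeq2 or the GC trend removed and 3 with all bins of each table, and it was 1 to 3 with a library left out. Genes with a peak at the start in all BT-549 vehicle libraries went from 1 to 2 within 3 kb or at the MANE Select start and were 1 to 4 with a library left out (4 without vehicle replicate 3), and in DOX 1 to 2 (2 without DOX replicate 1).

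In the DU-145 windows, the log2 fold change turned for KRT17 with loess offsets (-0.24) and thinned libraries (-0.043), for KRT14 without the GC trend (0.026) and with 50 kb (0.069), for TP63 without the GC trend (-0.024) and for KRT5 with limma (0.017) and the second draw (0.00043). Within the gene body it turned for KRT7 (-0.029) and KRT19 (-0.24). Within 1 kb of the gene start it turned for KRT7 (-0.40, adjusted p = 0.0025), KRT8 (-0.34, 0.0036) and KRT19 (-0.23), and within 1 kb of the MANE Select start for KRT7 (-0.40), KRT8 (-0.63, 4.5e-05), KRT19 (-0.23) and KRT15 (-0.43). With 50 kb it turned for KRT7 (-0.074) and KRT18 (0.24, 0.0023). With a library left out, KRT14 ranged from -0.18 to 0.017, KRT17 from -0.060 to 0.18, KRT5 from -0.50 to 0.27 and KRT7 from -0.093 to 0.090. In the DU-145 regions, that of KRT17 turned with TMM (-0.14), RLE (-0.19), loess (-0.35), DESeq2 (-0.20) and thinning (-0.043) and ranged from -0.061 to 0.18 with a library left out, that of KRT5 turned with limma (0.017) and the second draw (0.00043) and ranged from -0.487 to 0.27, that of KRT14 ranged from -0.18 to 0.012, and the KRT7 start turned with loess (0.12).

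In the BT-549 windows it turned for TP63 without the GC trend (0.16) and with 50 kb (0.31, adjusted p = 0.0013), for KRT7 at the gene start (0.87) and MANE Select start (0.93, 0.043), for KRT80 at both starts (0.078 each) and with 50 kb (0.26, 0.015), and for KRT15 and KRT19 with 50 kb (-0.31). The KRT80 start region turned with loess offsets and without the GC trend (-0.017 and -0.018) and in the second draw (-0.0053) and ranged from -0.12 to 0.16 with a library left out, and chr17:41519101-41519400 turned in the second draw (-0.22) and ranged from -0.13 to 0.29. Between the lines, chr3:189685701-189686600 of TP63 turned without the GC trend (-0.084), and the difference of effects at chr12:52189501-52190100 of KRT80 turned with limma (-0.039) and shared-bin sums (-0.020) and ranged from -0.052 to 0.42.

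Deviations of same-numbered libraries had r of 0.20, 0.09 and -0.02 in DU-145 and -0.01, 0.15 and 0.04 in BT-549. Libraries with different numbers had r from -0.25 to 0.18 in DU-145 and from -0.14 to 0.11 in BT-549. With 3 same-numbered pairs per line, these values cannot decide whether the numbers mark pairs. With the replicate number as a block, calls went from 5 to 6 in the DU-145 windows (KRT18, -0.18, adjusted p = 0.044), from 8 to 7 in the BT-549 regions (the KRT7 start, adjusted p = 0.057) and from 12 to 13 of the regions in both tables between the lines, and the other counts did not change.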
